A study of Mus musculus with 13 samples.

Results

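The genes described here encode the phase II conjugation enzymes of the liver: UDP-glucuronosyltransferases (UGTs), glutathione S-transferases (GSTs) and sulfotransferases (SULTs). Members were all protein-coding mouse genes whose symbols belong to the Ugt1a, Ugt2a, Ugt2b, Ugt3a, Gsta, Gstm, Gstp, Gstt, Gstz, Gsto, Gstk and numbered Sult series. There were 64 of them among 21887 protein-coding genes, with 21 UGTs, 22 GSTs and 21 SULTs in 21 gene clusters. A peak was counted for a member when the member's gene body was the nearest protein-coding gene body to the peak centre, within 100 kb.

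Conjugation enzymes attach a polar group to steroids, bile pigments, hormones and foreign compounds. UGTs transfer glucuronic acid, GSTs transfer glutathione to electrophiles, and SULTs transfer sulfate. Hepatocytes carry most of this activity, and many of the genes lie in tandem arrays of close relatives. The glucocorticoid receptor (GR) is a nuclear receptor that binds DNA once a glucocorticoid, such as the synthetic drug dexamethasone, has bound to it. NCOR1 is a corepressor that binds nuclear receptors and carries histone deacetylase HDAC3 to chromatin.

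Chromatin immunoprecipitation sequencing (ChIP-seq) was run on livers of male mice taken at zeitgeber time (ZT) 10, 2 h after an injection at ZT8 of vehicle (saline) or 1 mg/kg dexamethasone. Control mice carry the genotype label GFP, and knockout mice, called dKO, whose deletions include NCOR1, carry the label CRE. The labels do not state the promoter, the delivery or the cell type of Cre, and a whole liver also holds cells other than hepatocytes. GR was profiled in control and dKO liver under vehicle and under dexamethasone, with 2 libraries in each of the 4 groups. For NCOR1 there was 1 library from control mice given vehicle, 2 from control mice given dexamethasone and 1 from dKO mice given vehicle. A single control vehicle input (1 library) served every peak call. Libraries of a group were pooled before peaks were called, which leaves no replicate error, and no difference between groups could be tested. All values below describe these 7 lists, and intervals cover counting error only. They treat peaks, genes or tags as independent, which neighbouring peaks, tandem genes and tags need not be, so they can be too narrow.

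The lists rested on 27.5 to 31.9 M tags for GR, and for NCOR1 on 17.8 M (control vehicle), 36.9 M (control dexamethasone) and 17.5 M (dKO vehicle). For GR the share of tags in peaks was 5.0% under vehicle and 7.23% under dexamethasone in control liver, and 3.4% and 4.11% in dKO liver. For NCOR1 it was 8.52%, 6.38% and 2.07%. Of the 8 hepatocyte marker genes (among them Alb, Apoa1 and Hnf4a), 7 had a GR peak in control vehicle. So did 5 of 8 markers of Kupffer cells and other leukocytes, all 4 neuron markers and 50.2% of all protein-coding genes. All 5 endothelial markers had a peak in each list, and the dKO NCOR1 list held 36 peaks at them against 5 at the hepatocyte markers. In control vehicle these NCOR1 counts were 31 and 55. At leukocyte, stellate and cholangiocyte markers the NCOR1 counts were 4, 2 and 13 in control vehicle and 2, 2 and 2 in dKO vehicle. ChIP signal gives no expression.

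Promoter letters are shown first, because GR lay at the promoters of conjugation genes more often than at those of other genes. This held in both control lists and in dKO dexamethasone, and in dKO vehicle the shares were close. RefSeq windows on GRCm38.p6, from 250 bases before to 50 after a start site, were held for 56 of the 64 members (67 windows). The 4 stretches below run 5′ to 3′ on the gene's strand and hold only bases outside the gene body, and capitals mark every match to a searched motif. Gsta3, Gstm1 and Gstp3 held GR and NCOR1 peaks there, with a dKO GR peak at Gsta3 alone of these, and Ugt2b34 held NCOR1 without GR. The stretches at Ugt2a3, with a GR peak, and Gstm6, with GR and NCOR1 peaks, held no searched motif and are not shown.
Gsta3 (chr1:21240335-21240564, plus strand): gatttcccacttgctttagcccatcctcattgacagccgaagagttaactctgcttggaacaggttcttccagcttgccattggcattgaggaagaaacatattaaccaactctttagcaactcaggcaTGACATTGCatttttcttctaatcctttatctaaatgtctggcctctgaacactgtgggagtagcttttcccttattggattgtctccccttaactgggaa
Gstm1 (chr3:108017974-108018223, minus strand): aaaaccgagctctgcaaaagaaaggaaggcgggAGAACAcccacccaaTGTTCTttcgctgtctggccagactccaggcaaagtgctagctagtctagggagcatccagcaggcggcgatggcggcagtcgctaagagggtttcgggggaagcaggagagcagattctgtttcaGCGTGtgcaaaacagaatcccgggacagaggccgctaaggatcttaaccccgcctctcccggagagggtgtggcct
Gstp3 (chr19:4059606-4059697, minus strand): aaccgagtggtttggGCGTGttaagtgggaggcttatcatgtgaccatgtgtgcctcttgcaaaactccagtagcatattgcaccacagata
Ugt2b34 (chr5:86906938-86907187, minus strand): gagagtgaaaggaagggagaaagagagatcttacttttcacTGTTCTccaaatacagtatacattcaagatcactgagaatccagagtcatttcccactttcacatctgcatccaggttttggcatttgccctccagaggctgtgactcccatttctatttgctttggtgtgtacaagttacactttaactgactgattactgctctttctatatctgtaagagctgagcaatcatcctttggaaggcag

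The strongest promoter peak of the family lay at Sult1a1, the phenol sulfotransferase, at a start site 14.0 kb inside the gene. Only a short stretch is shown there, because the window lies within the gene body. Capitals mark the half-site nearest the start, at -34 from it.
Sult1a1 (chr7:126676435-126676464, minus strand): ttttgtttctggAGAACAgccagtcctagc
The GR tag count at this start site was 85.2 under vehicle and 70.8 under dexamethasone in control liver, and 43.0 and 44.5 in dKO liver. Normalized tag counts are tags per 10 M. The GR peak centres of the 4 lists lay between -25 and -3 from the start.

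Motifs were searched on both strands. The glucocorticoid half-site TGTTCT was in 16 of 67 member windows (23.9%), against 19.0% of all 32851 windows. These belong to 27025 genes, a wider background than the protein-coding genes used for promoter peaks below. Among windows with a GR peak in any list, the half-site was in 6 of 20 member windows, against 17.3% of all such windows. The full glucocorticoid response element was in 0 of the 67, also with 1 mismatch allowed, against 0.00913% and 0.164% of all windows. The antioxidant response element core TGACNNNGC was in 3 member windows (4.48%, against 12.4%), and the xenobiotic response element core GCGTG in 13 (19.4%, against 32.4%). Among the 20 member windows with a GR peak these cores were in 1 and 4, against 14.8% and 48.4% of all such windows. No member window held the DR1, DR4 or HNF1 motif, which were in 0.0396%, 0.0122% and 0.00913% of all windows. In Gstm1 the facing half-sites begin at -217 and -202 from the start. Each match is a description of letters, and a missing match says only that these letters are not in the window.

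A GR peak centre lay in the promoter window of 12 of 56 members in control vehicle (21.4%, 95% Clopper-Pearson interval 11.6 to 34.4), against 9.04% of 17492 protein-coding genes with a window. Under dexamethasone in control liver the count was 16 (28.6%, 17.3 to 42.2), against 8.85%. In dKO liver it was 4 under vehicle (7.14%, 1.98 to 17.3; all genes 6.52%) and 8 under dexamethasone (14.3%, 6.38 to 26.2; all genes 5.29%). NCOR1 centres lay in 19 member promoters in control vehicle (33.9%, 21.8 to 47.8; all genes 21.1%) and in 22 in control dexamethasone (39.3%, 26.5 to 53.2; all genes 16.8%). In dKO vehicle liver 2 remained called (3.57%, 0.435 to 12.3), below the 13.7% of all genes.

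**Figure D1:**
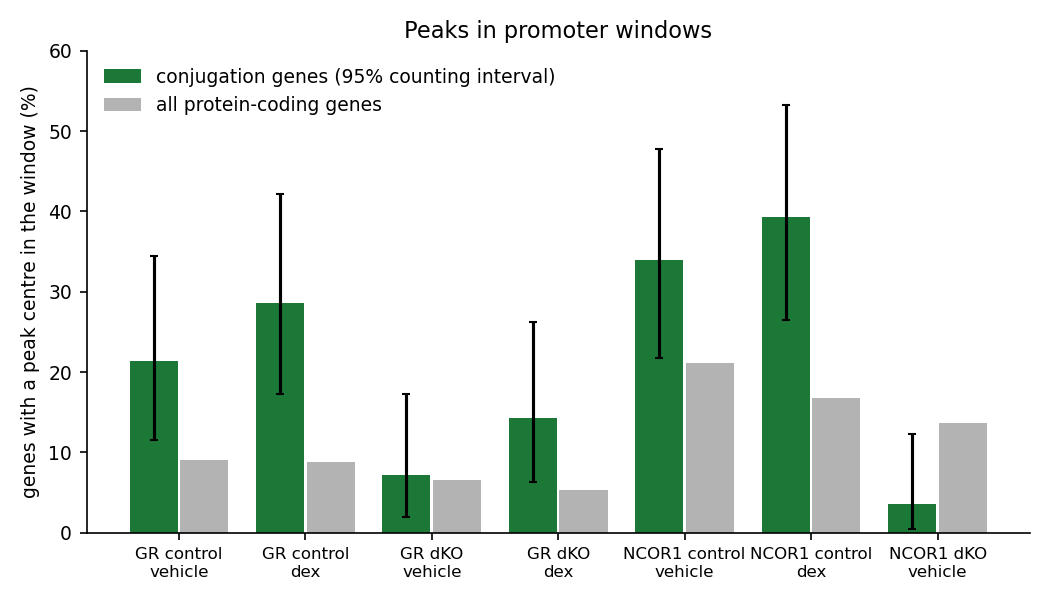
Share of genes (%) with a peak centre in the promoter window, for conjugation genes (green, 95% Clopper-Pearson intervals) and all protein-coding genes (grey), in the 7 lists. The control GR bars for conjugation genes stand at 21.4% and 28.6% over grey bars of 9.04% and 8.85%. The dKO GR bars stand at 7.14% and 14.3% over 6.52% and 5.29%, and in the dKO NCOR1 list the green bar (3.57%) is the lower one.

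At the promoter of Gsta3, an alpha-class GST, the GR tag count was 26.6 under vehicle and 42.6 under dexamethasone in control liver, and 16.9 and 23.0 in dKO liver. Its NCOR1 tag count was 37.7 in control vehicle and 23.3 in control dexamethasone. The Gstm1 promoter had a GR tag count of 17.5 in control vehicle and 22 in control dexamethasone, and no dKO GR peak was called there. The Gstp3 promoter likewise had 17.5 and 20.0 in the control lists and no dKO peak, with NCOR1 at 57.4 in control vehicle and 26.1 in control dexamethasone. Each of these promoters was thus higher in the control lists than in the dKO lists or was called in the control lists alone.

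Peaks were spread over 59 of the 64 members. Ugt1a1, Ugt2a2, Gstt4, Sult4a1 and Sult6b1 had none in any list. The bodies of the Ugt1a genes overlap, because they share their last exons, so 1 peak there can count for several of them, and Ugt1a1 and Ugt2a2 lie wholly inside a longer neighbour. Gstt3, Gsto1, Gstm7 and Sult2b1 had NCOR1 peaks and no GR peak, and Sult1c1 and Gstm5 had GR peaks and no NCOR1 peak. GR peaks at members numbered 105 of 30011 (vehicle) and 144 of 40853 (dexamethasone) in control liver, and 75 of 23362 and 99 of 28378 in dKO liver. NCOR1 peaks numbered 158 of 39458 (vehicle) and 159 of 37700 (dexamethasone) in control liver, and 20 of 17282 in dKO liver under vehicle. The members' share of a list was thus 0.321% to 0.422% in 6 lists and 0.116% in the dKO NCOR1 list.

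The Ugt2 array on chromosome 5 held the most GR peaks, with 24 under vehicle and 39 under dexamethasone in control liver, and 14 and 22 in dKO liver. The Sult2a array on chromosome 7, whose enzymes sulfate bile acids and steroids, held 15, 23, 12 and 18, and the Ugt1a locus 13, 17, 6 and 10. The Gstm cluster held 11 and 11 in control and 10 and 8 in dKO liver, and the Gstp cluster 5 and 5 in control and 2 and 2 in dKO. Member GR peaks lay inside gene bodies less often than all GR peaks did, at 28.3% to 38.9% against 55.0% to 55.6%. Gene length, which bears on such a share, was not taken into account. At member peaks the median GR tag count was 13.5 under vehicle and 16.1 under dexamethasone in control liver, and 10.6 and 11.9 in dKO liver. Over all peaks it was 13.3 and 12 in control, and 12.4 and 10.7 in dKO liver.

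The first comparison asked where dexamethasone moved GR in control liver. At most conjugation sites already held by GR the tag count was higher under the drug. Of 88 sites with a peak in both lists, 71 were higher under dexamethasone (80.7%, all shared sites 53.3%). The median log2 ratio was 0.55, against 0.07 over all 24576 shared sites. At least 2-fold higher were 22 sites (25%), against 11.5% of all shared sites, and at least 2-fold lower were 0, against 2.43%. The UGTs had a median of 0.57 (33 of 35 sites higher), the SULTs 0.56 (20 of 28) and the GSTs 0.36 (18 of 25).

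The site with the highest GR tag count under dexamethasone lay inside Sult1d1, a sulfotransferase of catecholamines (chr5:87563037-87563301). Its tag count was 43.3 in control vehicle and 143.5 in control dexamethasone, and 43.3 and 99.3 in the dKO lists. The Ugt1a site (chr1:88166570-88166800) had 63.2 and 120.9 in control and 33.7 and 83.7 in dKO liver. Both dKO dexamethasone values lay between the vehicle and the dexamethasone values of control liver. At Sult2a1, a bile acid and steroid sulfotransferase (chr7:13813978-13814224), the tag count was 51.7 and 99.7 in control and 27.9 and 36.8 in dKO liver. At Gstm3, a mu-class GST, a site 3.51 kb outside the gene (chr3:107972585-107972833) had 15.5 and 80.9 in control and 24.9 and 50.1 in dKO liver. The Sult2a1 dKO dexamethasone value lay below control vehicle, whereas the Gstm3 dKO vehicle value lay above it.

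**Figure D2:**
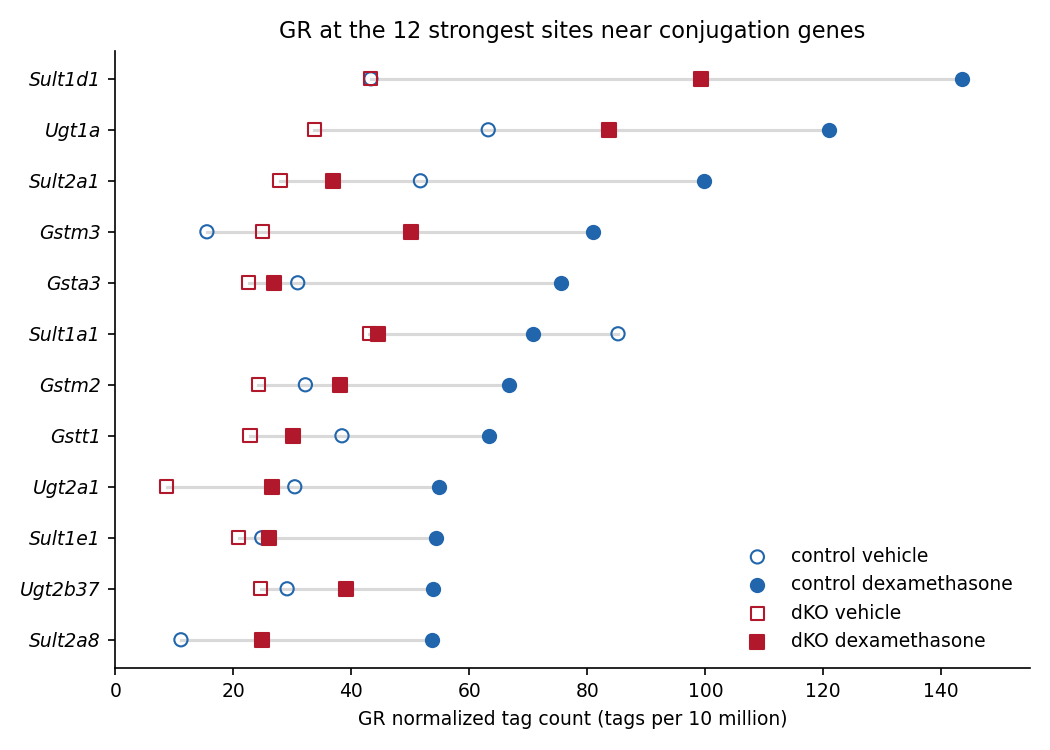
GR normalized tag count (tags per 10 M) at the 12 sites with the highest count in control dexamethasone, 1 row a site, in the 4 lists (circles control, squares dKO, filled dexamethasone). Sult1d1 leads at 143.5, and Sult1a1 alone is higher under control vehicle (85.2) than under control dexamethasone (70.8). Sult2a8 has no dKO vehicle point.

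Further along this order, a site 40.2 kb from Gsta3 (chr1:21305646-21305907) had 30.9 and 75.6 in control, and 22.6 and 26.8 in dKO liver. Gstm2 had 32.2 and 66.8 in control and 24.2 and 38.1 in dKO, and Gstt1, a theta-class GST, had 38.4 and 63.4 against 22.8 and 30.1. Ugt2a1, 8.35 kb from the gene, had 30.4 and 54.8 against 8.67 and 26.6. Sult1e1, the estrogen sulfotransferase, had 24.8 and 54.4 against 20.9 and 26.0, and Ugt2b37 had 29.1 and 53.9 against 24.6 and 39.0. In each of these sites the count was higher under dexamethasone in both genotypes, and the dKO dexamethasone count was below the control dexamethasone count.

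The largest ratio in control liver was at the Gstm3 site, 5.22-fold (counting interval 3.73 to 7.33). Sult2a8 followed at 4.83-fold (3.31 to 7.51; 11.1 and 53.6). The Sult3a genes, which are amine sulfotransferases, gave 3.76-fold at Sult3a2 and 3.33-fold at Sult3a1. Another Gstm3 site, 5.42 kb from the gene, gave 3.61-fold. The lowest ratio was at Sult6b2, 0.513-fold (0.387 to 0.674), with 54.6 under vehicle and 28.0 under dexamethasone. Next lowest were Ugt2a3 (0.617-fold), Sult5a1 (0.661), Gstm4 (0.714) and Gstt2 (0.752). The Sult5a1, Gstm4 and Gstt2 counting intervals reached above 1.

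New sites were about as frequent at conjugation genes as elsewhere. Of 144 dexamethasone peaks in control liver, 56 had no vehicle peak (38.9%, 30.9 to 47.4), against 39.8% of all peaks. Of 105 vehicle peaks, 17 had no dexamethasone peak (16.2%, 9.72 to 24.7), against 18.1%. The dexamethasone-only sites were led by Ugt2b36 (tag count 29.0), Ugt2b34 (27.8), Ugt2b5 (27.8) and Gstm2 (27.3). Gstt1 (26.8), Gstm4 (25.5), Ugt2b35 (25.5) and Ugt3a1 (21.5) came next, and the Ugt2b5 site had a vehicle peak within 500 bp. The vehicle-only sites were led by Ugt2b5 (22.2), Gstp3 (20.2), Ugt2a3 (19.1), Gstm1 (14.4) and Gsta3 (13.5). This Ugt2b5 peak is the one within 500 bp of the dexamethasone-only Ugt2b5 site, so GR was called there under both treatments. Among peaks at least 8-fold over input and over the local 10 kb, the shares were 12.7% (8 of 63) and 2.38% (1 of 42), against 19.6% and 3.47% of all such peaks.

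**Figure D3:**
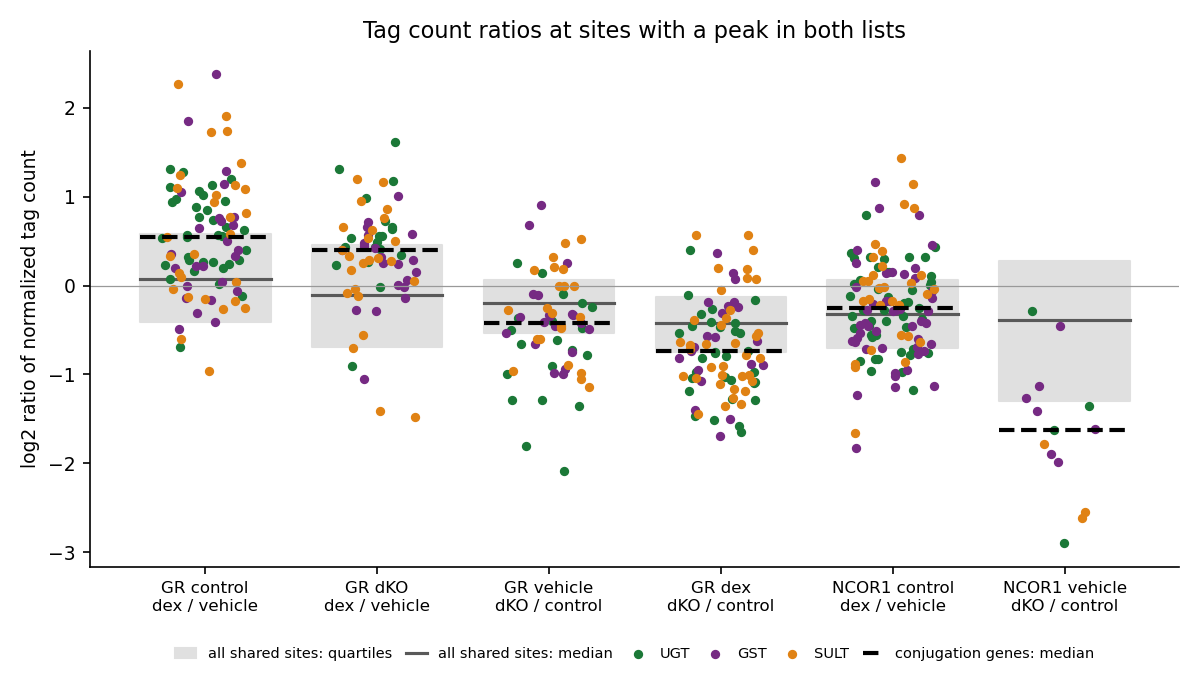
Log2 ratio of normalized tag count at sites with a peak in both lists, 1 point per site near a UGT (green), GST (purple) or SULT (orange) gene, for 6 comparisons; dashed lines are the members' medians, grey lines and bands the median and quartiles of all shared sites. The dashed line is above the grey line in the drug comparisons of GR (0.55 against 0.07 in control) and below it where dKO is compared with control.

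In dKO liver the conjugation sites were again mostly higher under dexamethasone, while all shared sites were not. Of 64 shared member sites, 50 were higher (78.1%, all shared sites 45.9%), with a median log2 ratio of 0.40 against -0.11 over all 18330 shared sites. At least 2-fold higher were 6 (all sites 7.61%), and at least 2-fold lower were 3 (all sites 8.63%). The 5 highest were Ugt2a1 (3.07-fold, 1.97 to 4.93), Ugt1a (2.48), Sult1d1 (2.29), Ugt2b35 (2.27) and Sult3a1 (2.24). The 3 that were at least 2-fold lower were Sult1c1 (21.8 under vehicle, 7.83 under dexamethasone), Sult2a4 (22.5 and 8.46) and Gstm4 (27.5 and 13.3). Ugt2b1 (0.534-fold) and Sult5a1 (0.614) were the next lowest.

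The dexamethasone-only share in dKO liver was 35 of 99 (35.4%, 26.0 to 45.6; all peaks 35.4%) and the vehicle-only share 11 of 75 (14.7%, 7.56 to 24.7; all peaks 21.5%). Ugt2b34 and Sult2a8 led the dexamethasone-only sites, each with a tag count of 24.9, followed by Ugt2b37 (22.1), Gstm1 (17.1) and Gsto2 (16.3). Gsto2 (22) and Ugt2a3 (19.4) led the vehicle-only sites, and each Gsto2 site had a peak of the other list within 500 bp. Among peaks at least 8-fold over input and local signal these shares were 14.3% and 4.0%, against 12.8% and 4.77% of all such peaks.

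In all 4 GR lists 56 member sites were called, which is 32.6% of the 172 member GR sites and close to the 32.5% of all GR sites. At these 56 the median drug ratio was 0.55 in control and 0.41 in dKO liver on the log2 scale. The dKO ratio was the smaller one at 37 sites (66.1%, all sites 63.3%), with a median difference of -0.23 against -0.15 over all 16338 such sites. The drug contrast of each genotype rests on its own pair of pooled lists, and the difference between genotypes was not tested.

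**Figure D4:**
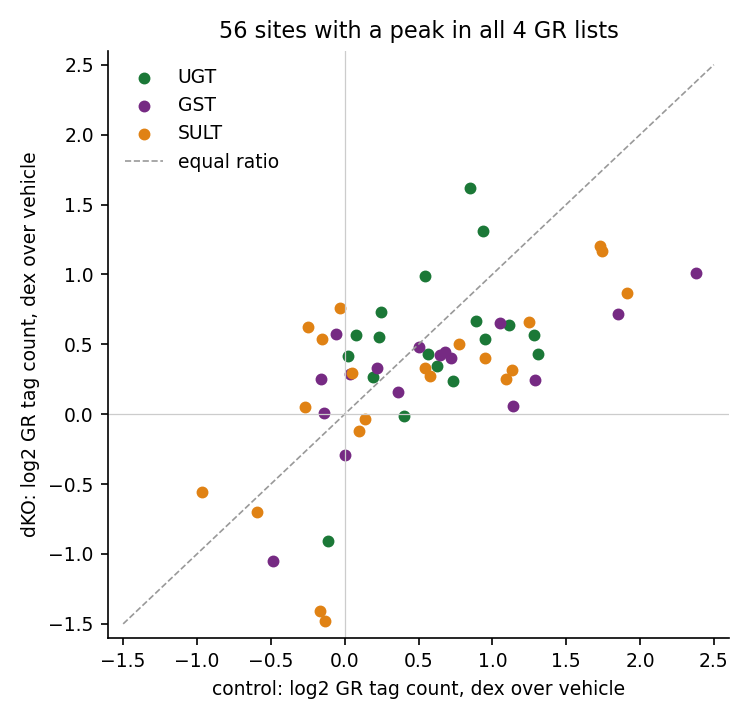
Log2 ratio of GR tag count, dexamethasone over vehicle, in control (x axis) and dKO liver (y axis) at the 56 member sites called in all 4 GR lists; the dashed line marks equal ratios. Of the points, 37 lie below the line, and the Gstm3 point with the highest control ratio (2.38) is among them.

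The next comparison set dKO against control liver. GR tag counts at most conjugation sites, as at most sites elsewhere, were lower in dKO liver under both treatments. Under vehicle 49 of 62 shared sites were lower (79.0%, all shared sites 68.2%), with a median log2 ratio of -0.42 against -0.19 over all 19488. At least 2-fold lower were 8 (12.9%, all sites 7.44%), and 0 were 2-fold higher (all sites 0.133%). Under dexamethasone 77 of 88 were lower (87.5%, all shared sites 83.2%), with a median of -0.73 (a ratio of 0.601) against -0.42 over all 24720. At least 2-fold lower were 29 (33.0%, all sites 12.1%), and 0 were 2-fold higher (all sites 0.324%). The share of tags in peaks, given above, is also lower in the dKO lists, and its part in these ratios was not tested. In bulk liver fewer cells with a bound site and less binding per cell cannot be told apart.

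Under vehicle the UGTs had a median log2 ratio of -0.63, the GSTs -0.38 and the SULTs -0.29. The lowest sites were Ugt2b1, 11.9 kb from the gene (26.0 in control, 6.10 in dKO; 0.235-fold, 0.134 to 0.396), and Ugt2a1 (30.4 and 8.67; 0.285-fold). Ugt1a10 (21.7 and 8.51), Ugt2b36 (24.4 and 9.95) and Ugt2b38 (22.4 and 9.15) came next, so the 5 lowest were all UGTs. The highest were both Gstm3 sites, 11.1 and 20.9 at the outer one (1.88-fold, 1.22 to 3.05) and 15.5 and 24.9 at the inner one (1.61-fold, 1.09 to 2.38). Sult1c1 (1.44-fold), Sult3a2 (1.39) and Sult2a4 (1.25) had intervals that reached below 1.

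Under dexamethasone the lowest ratios were at Gstt1, 5.84 kb from the gene (16.2 in control, 5.01 in dKO; 0.309-fold, 0.163 to 0.550), and Ugt2b1 (38 and 12.1; 0.318-fold). Ugt2b38 (34.6 and 11.6), Ugt2b36 (29.0 and 10.2) and the distal Gsta3 site (75.6 and 26.8) followed. Ugt2b1, Ugt2b36 and Ugt2b38 were thus among the 5 lowest under both treatments, although the Ugt2b36 sites differ. The highest were 2 Sult2a6 sites (1.49-fold and 1.48-fold), Sult6b2 (1.32), Ugt2b37 (1.32) and Gstm2 (1.29), and the counting interval of each included 1.

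Of 105 vehicle peaks of control liver, 43 had no dKO peak (41.0%, 31.5 to 51.0; all peaks 35.1%), and of 144 dexamethasone peaks 56 had none (38.9%, 30.9 to 47.4; all peaks 39.5%). By class, 51.2% of UGT, 39.4% of GST and 29.0% of SULT vehicle peaks had none, and under dexamethasone 49.2%, 41.7% and 23.4%. Under vehicle the strongest control-only sites were Gstp3 (20.2), Ugt2a3 (19.1), the Gstm1 promoter (17.5), the Gstp3 promoter (17.5) and a further Ugt2a3 site (16.0). Under dexamethasone they were Ugt2b5 (27.8), Gstt1 (26.8), Ugt1a (25.1), Ugt2a3 (23.8), the Gstm1 promoter (22) and Ugt3a1 (20.8). The Ugt2b5 site had a dKO dexamethasone peak of 23.8 within 500 bp. These are weak sites beside the leading ones. Among peaks at least 8-fold over input and local signal the control-only shares were 7.14% (3 of 42) under vehicle and 9.52% (6 of 63) under dexamethasone, against 7.14% and 12.8% of all such peaks.

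**Figure D5:**
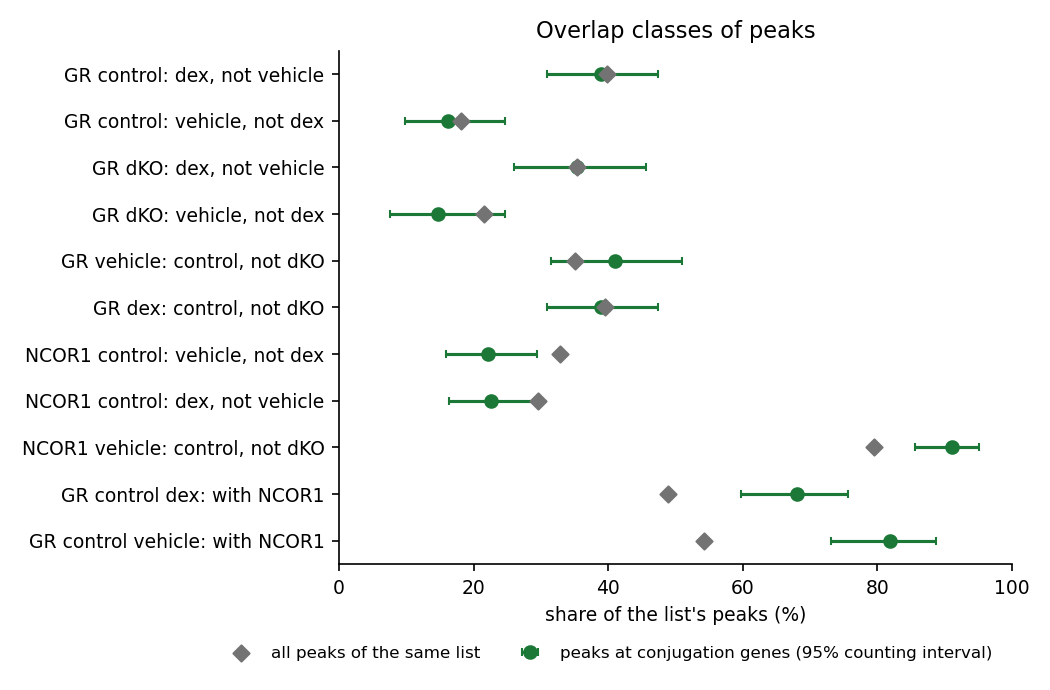
Share (%) of the peaks near conjugation genes (green, 95% Clopper-Pearson intervals) and of all peaks of the same list (grey diamonds) in each overlap class; "dex" is dexamethasone. The control dexamethasone-only GR share is 38.9% (grey 39.8%), and that of GR with NCOR1 is 81.9% (grey 54.3%) under vehicle. The NCOR1 shares are 22.2% (grey 32.8%) vehicle-only, 22.6% (grey 29.6%) dexamethasone-only and 91.1% (grey 79.5%) control-only. Peaks of 1 pooled list are not replicates, so the intervals are no test.

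GR peaks at conjugation genes lay on NCOR1 more often than GR peaks elsewhere. In control vehicle 86 of 105 GR peaks overlapped an NCOR1 peak (81.9%, 73.2 to 88.7), against 54.3% of all GR peaks. In control dexamethasone 98 of 144 did (68.1%, 59.8 to 75.6), against 48.9%. By class the vehicle share was 90.2% for UGTs, 81.8% for GSTs and 71.0% for SULTs. Among peaks above the list's median tag count the shares were 81.5% against 46.1% under vehicle and 72.9% against 56.8% under dexamethasone. Without NCOR1 peaks that overlapped the dKO list, an alternative added after the data were seen, they were 74.3% against 42.2% and 63.2% against 38.1%.

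NCOR1 had its highest member tag count 5.82 kb from Gstt1 (chr10:75804299-75804563), with 108.3 in control vehicle and 118.7 in control dexamethasone and no dKO peak. The GR tag count there was 9.46 in control vehicle and 16.2 in control dexamethasone. Gstt2 had an NCOR1 tag count of 88.6 under vehicle and 40.4 under dexamethasone in control liver, and 22.3 in dKO liver. Sult2a7, 32.4 kb from the gene (chr7:14525307-14525577), had 79.0, 67.7 and 12.9. Sult5a1, 3.95 kb from the gene, had 60.2, 38.7 and 10.3. A Gstt1 site inside the gene had 75.1 and 32.1, Sult2a8 69.8 and 72.1, Gstm4 65.5 and 18.4, and Sult1e1 59.6 and 65.0, with no dKO peak at any of them. Of the 8 strongest NCOR1 sites, the Gstt1 site inside the gene was also among the 12 strongest GR sites.

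NCOR1 peaks at conjugation genes were called under both treatments somewhat more often than NCOR1 peaks elsewhere, and they were also stronger (median tag count 20.0 against 15.5 in control vehicle). Of 158 control vehicle peaks, 35 had no dexamethasone peak (22.2%, 15.9 to 29.4; all peaks 32.8%), and of 159 dexamethasone peaks 36 had no vehicle peak (22.6%, 16.4 to 29.9; all peaks 29.6%). Above the list's median tag count these shares were 14.3% (all peaks 18.4%) and 8.26% (all peaks 12%). Among peaks at least 8-fold over input and local signal the shares were 5.75% and 5.88% (all such peaks 12.6% and 10.0%). The vehicle-only sites were led by Gstt2 (43.0), Gstp3 (35.4) and Gstt1 (25.6), and the dexamethasone-only ones by Gstm3 (24.0), Gstm1 (21.7), Ugt2b5 (21.7) and Sult3a2 (18.4). The Gstm3 site of this second group, which had a vehicle peak within 500 bp, is the one with the largest GR drug ratio.

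At 123 shared NCOR1 sites the median log2 ratio, dexamethasone over vehicle, was -0.25 against -0.32 over all 26532. At least 2-fold higher were 3 (all sites 1.52%), and at least 2-fold lower were 7 (all sites 12.2%). The 3 were Sult3a1 (6.47 and 17.6), Gstm2 (14.3 and 32.2; 2.25-fold, 1.48 to 3.68) and Sult3a2 (24.2 and 53.5; 2.21-fold, 1.58 to 3.14). Sult2a2 (1.90-fold) and Sult1d1 (1.84-fold) came next. In control liver the GR tag count was higher under dexamethasone at the Sult3a1, Sult3a2, Sult2a2 and Sult1d1 sites. It was higher at 80.7% of all member sites shared by the control GR lists (all shared sites 53.3%), so these sites do not stand apart. The Gstm2 site had a control GR peak under dexamethasone (27.3) and none under vehicle. The lowest were Gstm4 (65.5 and 18.4; 0.281-fold), Sult2a6 (24.8 and 7.86), Gstt1 (75.1 and 32.1), a Ugt1a site (18.6 and 8.26) and the Gstp3 promoter (57.4 and 26.1). The 2 lists differ in depth, 17.8 M against 36.9 M tags, and in number of libraries.

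NCOR1 signal at conjugation genes was mostly missing from dKO liver. Of 158 control vehicle peaks, 144 had no dKO peak (91.1%, 85.6 to 95.1), against 79.5% of all peaks. The strongest of these were the Gstt1 site (108.3), the inner Gstt1 site (75.1), Sult2a8 (69.8), Gstm4 (65.5), Sult1e1 (59.6), Gstp3 (57.4), Gstm2 (54.3) and Gsta4 (54.0). All 14 shared sites were lower in dKO liver (all shared sites 65.2%), with a median log2 ratio of -1.62 (0.326-fold) against -0.39 over all 8097. At least 2-fold lower were 12 (all sites 31.5%), and 0 were 2-fold higher (all sites 8.19%). The lowest were Ugt2b34 (57.7 and 7.73; 0.134-fold, 0.0731 to 0.243), Sult2a7 (79.0 and 12.9), Sult5a1 (60.2 and 10.3), Gstt2 (88.6 and 22.3) and Gstm3 (47.0 and 12.6). The highest were Ugt2b35 (8.72 and 7.16; 0.821-fold, 0.386 to 1.99) and Gstm2 (16.9 and 12.3; 0.728-fold, 0.388 to 1.29), whose intervals included 1. Gstm7 (41.9 and 19.2), Gstp3 (18.6 and 7.73) and a second Ugt2b35 site (20.5 and 8.01) followed, each below 0.5-fold. As given above, NCOR1 peaks at the 8 hepatocyte markers also fell, from 55 in control vehicle to 5 in dKO vehicle. At the 5 endothelial markers they numbered 31 and 36. The lower dKO count is thus not particular to conjugation genes. Each group is 1 library.

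The union of the 7 lists held 243 member sites, of which 126 had both GR and a control NCOR1 peak (51.9%, all sites 34.8%). GR alone held 46 (18.9%, all sites 27.4%) and NCOR1 alone, in any NCOR1 list, 71 (29.2%, all sites 36.4%). The union and the NCOR1-alone class include sites called only in the dKO NCOR1 list. That list held 20 member peaks among 17282, so such sites can weigh more on the shares of all sites. In all 7 lists 5 were called (2.06%), near the 2.48% of all sites, and they lay at Gstm3, Ugt2b34, Sult2a6, Sult2a7 and Sult5a1. The Gstm3 site (chr3:107974304-107974696) had GR tag counts of 11.1 and 40.1 in control and 20.9 and 34.3 in dKO liver, and NCOR1 at 47.0, 39.0 and 12.6. The Ugt2b34 site (chr5:86910820-86911113) had GR at 11.1, 24.0, 6.74 and 10.5, and NCOR1 at 57.7, 32.1 and 7.73. The Sult2a7 site had GR at 24.6 and 36.8 in control and 19.3 and 23.3 in dKO liver. At the Sult2a6 site GR was 10.0 and 8.99 in control and 6.58 and 9.56 in dKO liver. At the Sult5a1 site it was 17.3 and 18.5 in control and 8.35 and 7.68 in dKO liver, so both dKO values lay below both control values.

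Genes that supply the cofactors or sense the substrates carried peaks as well. All 13 cofactor genes had an NCOR1 peak in control vehicle, as did 52.8% of all protein-coding genes. In each control list 12 of the 13 had a GR peak, against 50.2% (vehicle) and 55.2% (dexamethasone) of all genes. The 4 neuron markers, from a tissue not sampled, also all had one, and such counts say little about a list. Values below are the highest tag count among all peaks of a gene in each list, so they need not come from 1 site. At Gclc, which limits glutathione synthesis, the highest GR tag count was 67.0 under vehicle and 106.7 under dexamethasone in control liver, and 60.4 and 110.3 in dKO liver. At Mat1a, a methionine adenosyltransferase, it was 99.0 and 93.1 in control, and 25.7 and 46.2 in dKO liver. Papss2, which makes the sulfate donor, had NCOR1 at 140.1 in control vehicle and 111.2 in control dexamethasone. The highest Mat1a value was lower in dKO than in control liver under both treatments, and that of Gclc was lower under vehicle only.

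Of 14 other conjugation and phase II enzymes, 10 had a GR peak in control vehicle and 11 in control dexamethasone. Over all protein-coding genes these shares were 50.2% and 55.2%. Nat1 had no peak in any list. Nnmt, a nicotinamide methyltransferase, had GR at 63.5 and 93.6 in control and 39.2 and 60.2 in dKO liver. Of 12 sensors and regulators, 12 had a GR peak in control vehicle and 11 in control dexamethasone, beside the same 50.2% and 55.2%. Ahr, the receptor for aryl hydrocarbons, had 25.7 and 134.7 in control and 22.3 and 83.5 in dKO liver. Nr1i2, the pregnane X receptor, had 141.6 and 146.4 in control and 85.9 and 100.3 in dKO, and its partner Rxra had 184.6 and 186.5 against 71.3 and 111.4. Ahr had 2 peaks in control vehicle and 9 in control dexamethasone, 7 of them without a vehicle peak (39.8% of all control dexamethasone peaks had none).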

How the data were processed

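Peak lists deposited by the authors for 7 groups were used, with libraries pooled per group. Per the submitters' processing notes, Trim Galore 0.6.4, BWA 0.7.17, HOMER 4.11, bedtools 2.29.2 and mm10 were named. Per the file headers, peaks of 200 bp passed 4-fold over 1 control vehicle input and over the local 10 kb. GR lists had a fixed tag threshold of 15, and the NCOR1 lists thresholds of 11, 16 and 12 at a false discovery rate of 0.001. GR libraries were made without size selection and NCOR1 and input with it, per the labels. The normalized tag count is a signal, per the file headers, in tags per 10 M. The fold over input and over local signal is a ratio the authors deposited.

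Python 3.11.15, pandas 2.3.3, numpy 2.4.6 and scipy 1.17.1 were used. Lists were matched by at least 1 bp. Of 380948 overlap calls in 11 pairs of lists, 0 differed from bedtools 2.31.1. Shares carry 95% Clopper-Pearson intervals. Intervals of ratios use tag numbers computed as tag count times depth. The code was tested on simulated data. Members, lists and the rule for named genes were chosen with earlier results of these data known. Named genes were drawn from the 12 strongest GR and 8 strongest NCOR1 sites, the 8 strongest sites of 1 condition alone, the 5 highest and 5 lowest ratios, and the genes in all 7 lists or in none. Protein-coding genes replaced all genes with a window as the promoter background after the first promoter values had been seen. Promoter letters were planned for the 6 windows with the highest tag counts. Bases inside a gene body were left out, except for a stretch of 30 bases at Sult1a1. Only 5 stretches are shown, a choice made after the windows were seen. Those read but left out, at Ugt2a3 and Gstm6, held no searched motif, so the stretches shown are not a fair sample for motifs. One item of the knockout is not reported here.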

Additional observations from a re-analysis of the deposited data

Results flagged for a closer look

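At 10 of the 56 sites in all 4 GR lists the tag count was higher under dexamethasone in one genotype and lower in the other (17.9%, against 13% of all 16338 such sites). Each value below is the dKO minus the control log2 ratio, and the difference was not tested. The dKO ratio was the higher one at 2 Sult2a6 sites (0.874, chr7:14202561, and 0.693, chr7:14307605), Sult1e1 (0.797), Gsta4 (0.635), Gstk1 (0.414), Sult1a1 (0.317) and Gstp1 (0.152). It was the lower one at a Ugt1a site (-0.413, chr1:88179729), Sult5a1 (-0.217) and a further Sult2a6 site (-0.176). At Sult1e1 the GR tag count was 29.5 under vehicle and 28.8 under dexamethasone in control, and 19.4 and 32.9 in dKO liver. At Sult1a1 it was 85.2 and 70.8 in control, and 43.0 and 44.5 in dKO liver. Many of these ratios are close to 0 in 1 genotype, as at the Ugt1a site (8.55 and 11.3 in control, 9.47 and 9.4 in dKO).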

How the results depend on the processing

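No paired analysis was possible because the deposited lists pool the libraries of a group, and for the same reason no library could be left out. Over all alternatives, 99 values stayed near the main value, 9 moved and 1 reversed. A share counted as near when it lay within the main counting interval, whatever its side of the share of all peaks. A ratio median counted as near when it kept its sign and lay within the spread over sites. The 9 came from keeping peaks at least 8-fold over input and local signal. The GR dexamethasone-only share then was 12.7% in control and 14.3% in dKO, and the vehicle-only share 2.38% and 4.0%. The control-only GR share was 7.14% under vehicle and 9.52% under dexamethasone. The NCOR1 vehicle-only and dexamethasone-only shares were 5.75% and 5.88%, and the share of GR dexamethasone peaks with NCOR1 was 81.0%. Fewer peaks enter that setting, and the cause was not tested. With both lists cut to equal length by tag count, the GR dexamethasone-only share in control was 32.3% (all such peaks 29.5%). The vehicle-only share in control was then 18.1% (all such peaks 29.5%). The control-only GR share was 34.9% under vehicle and 31.7% under dexamethasone (all such peaks 25.6% and 26.6%). Under dexamethasone the main value had lain slightly below that of all peaks (38.9% against 39.5%). The NCOR1 log2 ratio, dexamethasone over vehicle, became 0.064 after the median of all shared sites was subtracted. The members' median of -0.251 lies slightly above the -0.315 of all shared sites. The same subtraction kept the sign of the other ratio medians. Absence from a list means only that no peak passed the calling thresholds there. The weakest member peaks rest on 10.5 to 16.5 tags.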
